A study of Rattus norvegicus with 9 samples.

Results

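The unfolded protein response of the endoplasmic reticulum (ER) was examined through 40 listed genes in quiescent rat aortic smooth muscle cells (RASMC). A gene was measured when the array annotation gave a probe set that symbol alone, and 36 of the 40 genes were, among 14324 genes with such a probe set. Each of the 36 genes had 1 probe set. *Ern1*, *Ero1b*, *Edem1* and *Derl2* had none and are not analysed here. The cells were bought commercially, and their donor animals are not described in the sources used here. They were used at a low passage, made quiescent in low-serum medium and washed with K+-free DMEM in all 3 groups. The cultures were then kept for 6 hr in control DMEM, in DMEM with 3 mM ouabain, which binds and blocks the Na+,K+-ATPase, or in K+-free DMEM, which deprives the pump of external K+. Total RNA from 3 independent experiments was measured on Affymetrix Rat Gene 1.0 ST arrays, 9 in all, so each mean below rests on 3 arrays. The study asked which transcripts respond when both treatments raise the ratio of intracellular Na+ to K+. The 3 control arrays served both treatments, so the 2 sets of changes are not independent.

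The ER folds secreted and membrane proteins with the help of chaperones and of oxidoreductases that form disulfide bonds. When unfolded proteins accumulate, 3 transmembrane sensors respond: IRE1 (gene *Ern1*) splices the *Xbp1* transcript, PERK (*Eif2ak3*) phosphorylates the translation factor eIF2alpha, and ATF6 moves to the Golgi, where the proteases encoded by *Mbtps1* and *Mbtps2* release it as a transcription factor. Spliced XBP1 and cleaved ATF6 raise chaperones and the machinery of ER-associated degradation (ERAD), while PERK raises the factors ATF4 and CHOP and, through them, the phosphatase subunit GADD34 (*Ppp1r15a*), which reverses the block on translation. Smooth muscle cells of the arterial wall secrete large amounts of collagen and elastin and carry a well-developed ER.

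Promoters of known ATF6 and XBP1 targets carry a common element, and the windows of the listed genes were searched for it. The ER stress response element (ERSE) reads CCAAT, then 9 bases of any kind, then CCACG, and the related ERSE-II reads ATTGG, 1 base of any kind, then CCACG. Both were searched on both strands of the 300-base RefSeq windows (GRCr8) that run from 250 bases before to 50 bases after each gene start. Of the 31 listed genes with a window, 9 held an ERSE and 3 an ERSE-II, so 12 (38.7%) held one of these elements. Among all 27457 genes with a window, 38 (0.138%) did. Matches before genes that moved and before genes that passed no test are shown here with 5 bases on each side, on the strand of the gene, and capitals mark the outer bases of the element; an ERSE that runs on the other strand reads CGTGG first and ATTGG last.
Hspa5, chr3:38452968-38452996, + strand: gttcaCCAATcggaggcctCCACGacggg
Calr, chr19:40213130-40213158, + strand: caacgCGTGGtcgaccctgATTGGcccag
Canx, chr10:35158064-35158092, - strand: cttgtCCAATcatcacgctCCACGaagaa
Hsp90b1, chr7:23012446-23012474, - strand: caaacCCAATcgaaaggagCCACGcttcg
Creld2, chr7:121789234-121789262, + strand: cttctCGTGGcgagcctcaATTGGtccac
Xbp1, chr14:84604553-84604581, + strand: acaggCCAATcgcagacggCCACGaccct
Dnajc3, chr15:102432529-102432557, + strand: caaagCCAATcagcgccaaCCACGaccca
Derl3, chr20:12766596-12766624, - strand: tctacCGTGGgacttccttATTGGctagc
Herpud1 (ERSE-II), chr19:10614816-10614836, - strand: cgctgATTGGgCCACGttggg

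The first 5 of these genes passed the test for a change in neither treatment, *Xbp1* fell in both, *Dnajc3* and *Herpud1* rose in both and *Derl3* rose in K+-free DMEM. *Hsp90b1* held a further ERSE, *Hyou1* held 2 ERSE-II matches and the ERSE-II match of *Dnajb11* ran into the gene start. The element thus stood before genes that rose, before a gene that fell and before genes that passed the test in neither treatment. A match is a description of letters and not of binding, and its absence says only that these letters are not in the window.

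Across the 36 measured genes, fewer than 1 in 2 moved in either treatment, and they moved in both directions. In ouabain 9 genes rose and 6 fell, against 9 and 7 in K+-free DMEM, at an adjusted p under 0.05 (limma, Benjamini-Hochberg over all 27342 probe sets) and a change above 1.2-fold. The genes that rose were 25% of the list in each treatment, against 15.8% of all probe sets in ouabain and 16.1% in K+-free DMEM. The genes that fell were 16.7% and 19.4% of the list, against 16.8% and 17.9% of all probe sets. Among the 14324 genes with a symbol, 17.5% rose and 22.7% fell in ouabain, against 17.8% and 24.0% in K+-free DMEM. The median change of the 36 genes was 0.06 on the log2 scale in each treatment, and over all probe sets it was 0.07 in ouabain and 0.06 in K+-free DMEM. The falling share of the list was near that of all probe sets and below that of genes with a symbol. The rising share was above both. These backgrounds include dim probe sets, and without those 35 listed genes remained. In ouabain 9 of the 35 were higher, beside 22.8% of the probe sets kept, and 6 were lower, beside 29.7%. For K+-free DMEM the counts were 8 higher, beside 23.8%, and 7 lower, beside 31.6%. On that background the rising shares of the list were near those of the probe sets kept, and its falling shares were below them. No test of these differences was run.

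Of the 36 genes, 17 passed the test in at least 1 treatment and 13 did so in the same direction in both. *Atf6*, *Dnajb9*, *Dnajc3*, *Ero1a*, *Herpud1*, *Derl1*, *Ppp1r15a* and *Ppp1r15b* rose in both. *Xbp1*, *Mbtps1*, *Edem2*, *Sel1l* and *Syvn1* fell in both. Of all 27342 probe sets, 2897 rose in both and 3794 fell in both. The 5 listed genes that fell in both were near that share of all probe sets. The 8 that rose in both were above the share of all probe sets, dim ones included, which was not tested. *Eif2ak3* rose in ouabain and fell in K+-free DMEM. *Mbtps2* fell in ouabain, *Selenos* fell in K+-free DMEM and *Derl3* rose in K+-free DMEM, each without passing the test in the other treatment. The remaining 19 genes, 52.8% of the list against 58.6% of all probe sets, passed in neither. The control arrays did not overlap the treated arrays for 24 genes (66.7%) in ouabain and for 28 genes (77.8%) in K+-free DMEM. The same held for 54.2% and 57.1% of all probe sets and for 63.1% and 65.6% of genes with a symbol. In ouabain the share of the list was thus near that of genes with a symbol.

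**Figure D1:**
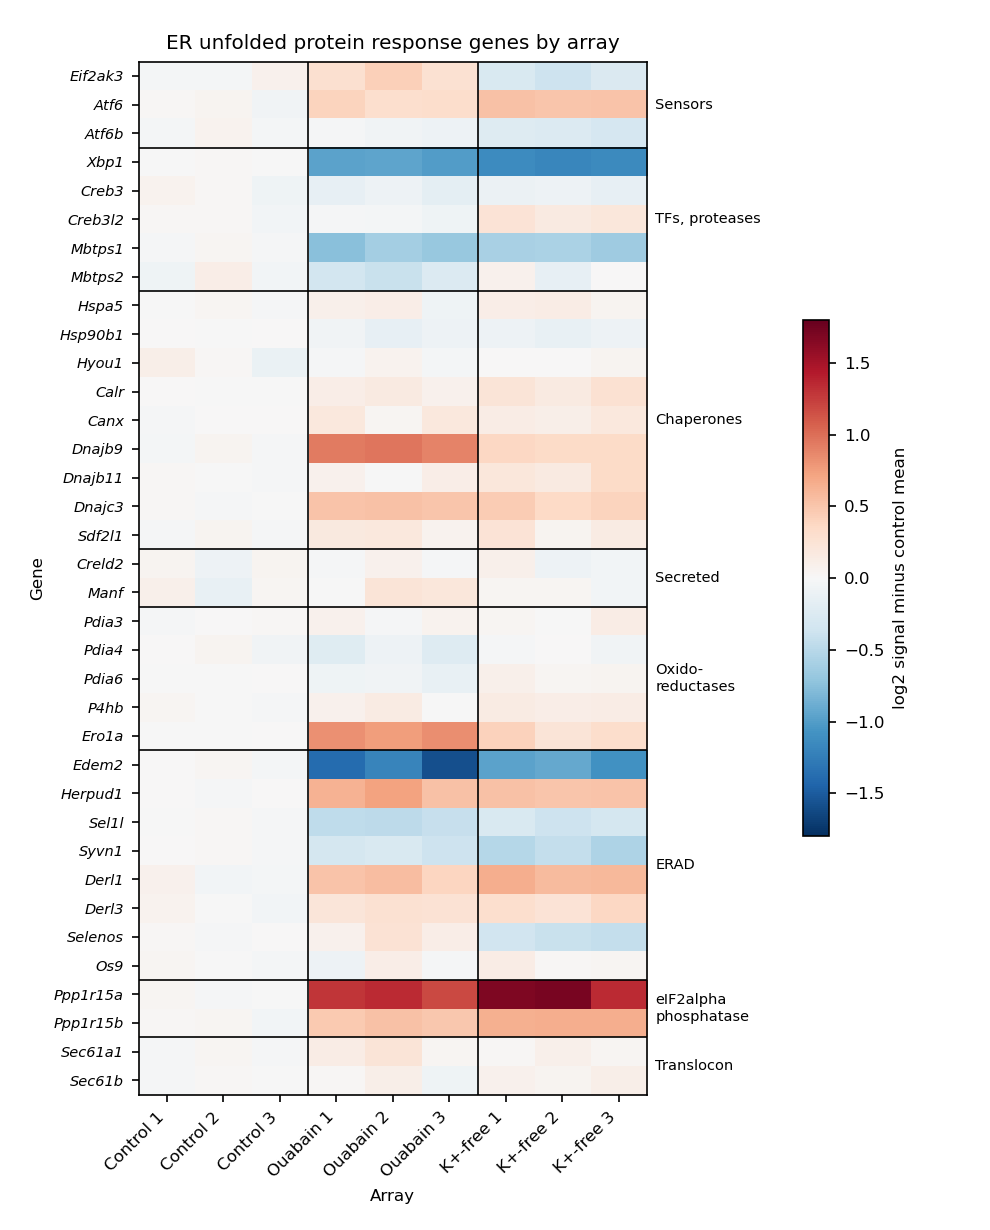
Log2 signal of each of the 36 measured genes (rows, grouped by role) on each of the 9 arrays (columns), minus the mean of the 3 control arrays; red is higher and blue lower. The bands of *Xbp1*, *Edem2*, *Dnajb9*, *Ero1a* and *Ppp1r15a* run through all 3 arrays of a treatment, and most chaperone and oxidoreductase rows stay pale.

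The scale of the arrays bears on these counts. The deposited signals were normalized over all probe sets, whereas the study used *B2m* (beta-2 microglobulin) as the reference for its PCR measurements. The log2 signal of *B2m* itself was 0.15 higher in ouabain and 0.16 higher in K+-free DMEM, without passing the fold limit. When the arrays were centred on *B2m*, the median change of all probe sets moved to -0.08 in ouabain and -0.10 in K+-free DMEM. Then 7 listed genes rose and 8 fell in ouabain, against 5 and 10 in K+-free DMEM. On that scale *Eif2ak3* and *Atf6* no longer passed the limits in ouabain, nor did *Dnajb9*, *Dnajc3*, *Ero1a* and *Derl3* in K+-free DMEM, although none of them changed sign.

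The sensors did not move alike. *Eif2ak3*, which encodes PERK, had log2 signals of 10.11, 10.11 and 10.22 on the control arrays, 10.43, 10.58 and 10.43 in ouabain and 9.88, 9.78 and 9.88 in K+-free DMEM. The 3 groups did not overlap, with control in the middle. The gene rose by 0.33 ± 0.06 (SE) in ouabain (adjusted p = 0.00105, limma) and fell by 0.30 ± 0.06 in K+-free DMEM (adjusted p = 0.00197, limma). The difference between the treatments was -0.63, or 1.55-fold (adjusted p = 2.74e-05, limma), the largest of the list. Of all 27342 probe sets, 63 rose in ouabain and fell in K+-free DMEM.

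*Atf6* had log2 signals of 11.45, 11.48 and 11.36 in control, 11.82, 11.73 and 11.74 in ouabain and 11.95, 11.92 and 11.94 in K+-free DMEM. Every treated array stood above every control array. It rose by 0.34 ± 0.05 in ouabain (adjusted p = 0.000295, limma) and by 0.51 ± 0.05 in K+-free DMEM (adjusted p = 9.8e-06, limma). Its paralogue *Atf6b*, a weaker activator of the same element, changed by -0.06 in ouabain and -0.26 in K+-free DMEM. The second value, -0.259 with 1 more digit, passed on its adjusted p (0.00154, limma). It missed the fold limit, which is 0.263 on the log2 scale. It went past that limit when the arrays were centred on reference genes, at -0.30, or on *B2m*, at -0.42. The same happened without the first or the third control array, and without the first or the second K+-free array.

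Among the transcription factors, *Xbp1* showed the clearest fall of the list. Its log2 signals were 12.29, 12.31 and 12.28 in control, 11.33, 11.35 and 11.29 in ouabain and 11.17, 11.12 and 11.16 in K+-free DMEM. The 3 groups did not overlap, and the SD within a group was at most 0.03 (n = 3). *Xbp1* fell 1.96-fold in ouabain (log2 change -0.97 ± 0.05, adjusted p = 2.91e-08, limma) and 2.22-fold in K+-free DMEM (-1.15 ± 0.05, adjusted p = 7.33e-09, limma). The probe set gives 1 value for the gene, so the spliced and unspliced transcripts were not measured apart.

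*Mbtps1*, which encodes the site-1 protease that makes the first cut in ATF6, had log2 signals of 11.19, 11.25 and 11.19 in control, 10.46, 10.59 and 10.52 in ouabain and 10.62, 10.63 and 10.57 in K+-free DMEM. All treated arrays were below the control arrays, and the 2 treatments overlapped. The fall was 0.69 ± 0.05 in ouabain (adjusted p = 1.05e-06, limma), and in K+-free DMEM the gene fell by 0.60 ± 0.05 (adjusted p = 2.7e-06, limma). *Mbtps2*, the site-2 protease, had log2 signals of 10.19, 10.39 and 10.22 in control, 9.93, 9.86 and 10.02 in ouabain and 10.34, 10.12 and 10.27 in K+-free DMEM. The ouabain arrays were the lowest and the K+-free arrays overlapped control. It fell in ouabain by 0.33 ± 0.07 (adjusted p = 0.00424, limma) and changed by -0.02 in K+-free DMEM. The difference between the treatments was 0.30 (95% interval 0.14 to 0.47; adjusted p = 0.0125, limma), and it missed the threshold without the first K+-free array, at 0.26 (adjusted p = 0.0565). *Creb3* and *Creb3l2*, related factors that are also cut by these proteases, changed by -0.14 and -0.05 in ouabain and by -0.12 and 0.20 in K+-free DMEM, within the fold limit. Centred on *B2m*, *Creb3* passed both limits at -0.29 and -0.28.

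Of the 9 chaperones and cochaperones, only *Dnajb9* and *Dnajc3* passed the test against control, on the scale of the deposited signals. *Dnajb9*, an ER DnaJ protein that keeps IRE1 bound to BiP, had log2 signals of 11.03, 11.10 and 11.03 in control, 11.98, 12.02 and 11.95 in ouabain and 11.43, 11.40 and 11.39 in K+-free DMEM. The 3 groups did not overlap. It rose by 0.93 ± 0.05 in ouabain, 1.91-fold (adjusted p = 5.62e-08, limma), and by 0.35 ± 0.05 in K+-free DMEM (adjusted p = 0.000101, limma). The level in K+-free DMEM was lower than in ouabain by 0.58 on the log2 scale (difference -0.58, adjusted p = 9.38e-06, limma).

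*Dnajc3*, also called p58IPK, an inhibitor of PERK and a BiP cochaperone, had log2 signals of 10.60, 10.55 and 10.57 in control, 11.09, 11.10 and 11.07 in ouabain and 11.04, 10.93 and 10.98 in K+-free DMEM. The treated arrays were all above control. It rose by 0.51 ± 0.05 in ouabain (adjusted p = 5.38e-06, limma) and by 0.41 ± 0.05 in K+-free DMEM (adjusted p = 3.27e-05, limma).

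*Hspa5*, which encodes BiP, the main ER chaperone and the one that holds the sensors inactive, did not pass the test. Its log2 signals were 13.55, 13.59 and 13.53 in control, 13.65, 13.68 and 13.49 in ouabain and 13.67, 13.69 and 13.61 in K+-free DMEM. The ouabain arrays overlapped control, and the K+-free arrays lay just above it. The change was 0.05 in ouabain (95% interval -0.08 to 0.18; adjusted p = 0.531, limma) and 0.10 in K+-free DMEM (-0.03 to 0.23; adjusted p = 0.196, limma). Both intervals lay inside the 1.2-fold limit.

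The other chaperones stayed inside that limit as estimates. *Hsp90b1*, the ER form of HSP90, changed by -0.10 and -0.11, and centred on *B2m* it passed both limits in K+-free DMEM at -0.27. *Hyou1*, a nucleotide exchange factor for BiP, changed by 0.01 and 0.02, with intervals of -0.13 to 0.15 and -0.12 to 0.16. The lectin chaperones calreticulin (*Calr*) and calnexin (*Canx*) changed by 0.12 and 0.14 in ouabain and by 0.22 and 0.14 in K+-free DMEM. *Calr* in K+-free DMEM passed on its adjusted p (0.00438, limma) but not on fold, as did *Dnajb11*, another DnaJ partner of BiP, with a change of 0.23 (adjusted p = 0.00783, limma). *Sdf2l1*, a component of chaperone complexes, changed by 0.15 in each treatment, and under repeated quantile normalization it passed both limits at 0.35 and 0.34. The secreted proteins *Creld2* and *Manf*, which leave the cell under ER stress, changed by 0.01 and 0.15 in ouabain and by -0.02 and 0.01 in K+-free DMEM.

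Among the 5 oxidoreductases measured, only *Ero1a*, the oxidase that supplies oxidising equivalents to protein disulfide isomerases, passed the test against control, on the scale of the deposited signals. Its log2 signals were 10.83, 10.83 and 10.84 in control, 11.65, 11.58 and 11.67 in ouabain and 11.24, 11.07 and 11.15 in K+-free DMEM. The 3 groups did not overlap. *Ero1a* rose by 0.80 ± 0.06 in ouabain, 1.74-fold (adjusted p = 4.94e-07, limma), and by 0.32 ± 0.06 in K+-free DMEM (adjusted p = 0.000654, limma). The difference of -0.48 between the treatments also passed (adjusted p = 9.76e-05, limma). The isomerases *Pdia3*, *Pdia4*, *Pdia6* and *P4hb* changed between -0.18 and 0.07 in ouabain and between -0.02 and 0.14 in K+-free DMEM. *Pdia4* in ouabain passed on its adjusted p (0.0253, limma) but not on fold, which it did when centred on *B2m*, at -0.33.

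**Figure D2:**
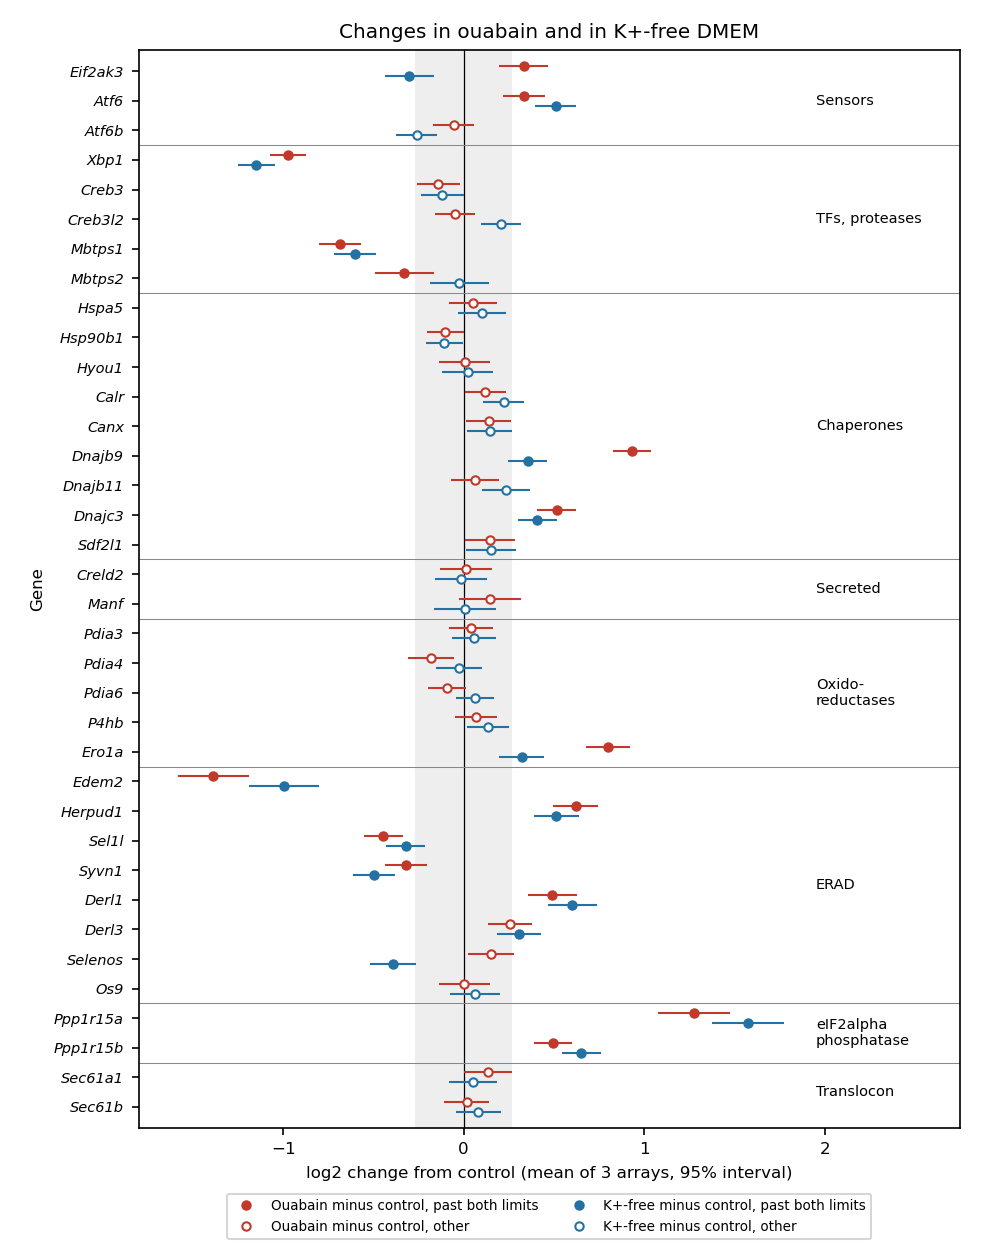
Change of each measured gene from control on the log2 scale (horizontal axis) in ouabain (red) and K+-free DMEM (blue), as the difference of the means of 3 arrays with its 95% interval from limma; filled points passed both limits and the grey band spans changes within 1.2-fold. *Eif2ak3* lies on opposite sides of 0 in the 2 treatments. In ouabain the points of *Dnajb9* (0.93) and *Ero1a* (0.80) lie above those of the other chaperones and oxidoreductases. In K+-free DMEM they lie at 0.35 and 0.32, below *Dnajc3* at 0.41.

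The 8 ERAD genes measured held 2 that rose (25%) and 3 that fell (37.5%) in ouabain, where 15.8% and 16.8% of all probe sets did. In K+-free DMEM 3 rose (37.5%) and 4 fell (50%), where 16.1% and 17.9% of all probe sets did. Of genes with a symbol, 17.5% rose and 22.7% fell in ouabain, against 17.8% and 24.0% in K+-free DMEM. *Edem2*, a mannose-trimming protein that marks misfolded glycoproteins for degradation, had log2 signals of 8.85, 8.89 and 8.82 in control, 7.47, 7.66 and 7.27 in ouabain and 7.88, 7.93 and 7.76 in K+-free DMEM. The groups did not overlap and ouabain was lowest. The log2 change was -1.39 ± 0.09 in ouabain, a 2.61-fold fall (adjusted p = 2.5e-07, limma), and -0.995 ± 0.09 in K+-free DMEM, a 1.99-fold fall (adjusted p = 3.02e-06, limma). The difference of 0.39 between the treatments passed both limits (adjusted p = 0.00792, limma), but not the methods' t-test after adjustment (adjusted p = 0.149).

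*Sel1l* and *Syvn1*, the scaffold and the ubiquitin ligase of the main ERAD complex, fell together. *Sel1l* had log2 signals of 10.11, 10.12 and 10.09 in control, 9.65, 9.64 and 9.70 in ouabain and 9.83, 9.73 and 9.79 in K+-free DMEM. The treated arrays were all lower than control, by 0.45 in ouabain (log2 change -0.45 ± 0.05, adjusted p = 1.85e-05, limma) and by 0.32 in K+-free DMEM (-0.32 ± 0.05, adjusted p = 0.000228, limma). *Syvn1* had log2 signals of 10.11, 10.13 and 10.09 in control, 9.79, 9.84 and 9.74 in ouabain and 9.60, 9.68 and 9.56 in K+-free DMEM. It did not overlap between any of the groups, with log2 changes of -0.32 ± 0.05 (adjusted p = 0.000443, limma) and -0.50 ± 0.05 (adjusted p = 1.19e-05, limma).

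Other parts of the same machinery rose. *Herpud1*, a stress-induced membrane protein that recruits the ligase complex, had log2 signals of 10.97, 10.94 and 10.98 in control, 11.59, 11.68 and 11.49 in ouabain and 11.50, 11.46 and 11.47 in K+-free DMEM. The treatments overlapped each other and not control. It rose by 0.62 ± 0.06 (adjusted p = 3.84e-06, limma) and 0.51 ± 0.06 (adjusted p = 1.67e-05, limma). *Derl1*, a channel-like protein of the retrotranslocation step, had log2 signals of 10.26, 10.13 and 10.15 in control, 10.70, 10.74 and 10.57 in ouabain and 10.83, 10.75 and 10.76 in K+-free DMEM. It rose by 0.49 ± 0.06 (adjusted p = 4.93e-05, limma) and 0.60 ± 0.06 (adjusted p = 8.51e-06, limma), with every treated array above control.

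*Derl3*, its relative, was the one measured gene of the list below the median brightness of the arrays. Its log2 signals were 5.78, 5.70 and 5.66 in control, 5.94, 5.99 and 5.98 in ouabain and 6.02, 5.96 and 6.09 in K+-free DMEM. The change was 0.25 in ouabain, just under the fold limit, and 0.31 in K+-free DMEM, just over it (adjusted p = 0.000798, limma), so the call in 1 treatment is no difference between them (0.05, adjusted p = 0.629, limma).

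*Selenos*, a selenoprotein that anchors the p97 ATPase at the ER membrane, had log2 signals of 10.65, 10.60 and 10.63 in control, 10.70, 10.89 and 10.74 in ouabain and 10.28, 10.23 and 10.20 in K+-free DMEM. The groups did not overlap, with ouabain above and K+-free DMEM below control. The change in ouabain was 0.15 (adjusted p = 0.0545, limma) and did not pass, and in K+-free DMEM the log2 change was -0.39 ± 0.06 (adjusted p = 0.000197, limma). The difference of -0.54 between the treatments passed (adjusted p = 5.58e-05, limma). *Os9*, a lectin that delivers glycoproteins to the ligase, changed by 0.00 and 0.06.

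The regulatory subunits of the eIF2alpha phosphatase rose in both treatments. *Ppp1r15a* (GADD34, the inducible subunit) had log2 signals of 8.74, 8.68 and 8.69 in control, 10.00, 10.05 and 9.89 in ouabain and 10.38, 10.42 and 10.05 in K+-free DMEM. All treated arrays were more than 1 log2 unit above control, and the third K+-free array overlapped the ouabain arrays. The rise was 2.42-fold in ouabain (log2 change 1.27 ± 0.09, adjusted p = 5.49e-07, limma) and 2.98-fold in K+-free DMEM (1.58 ± 0.09, adjusted p = 9.2e-08, limma), the largest of the list in each. The difference of 0.30 between the treatments (adjusted p = 0.0351, limma) lost its threshold when any 1 of 7 of the 9 arrays was left out, at adjusted p from 0.051 to 0.132, and in the methods' t-test. *Ppp1r15b* (CReP, the constitutive subunit) had log2 signals of 11.20, 11.21 and 11.13 in control, 11.65, 11.72 and 11.66 in ouabain and 11.83, 11.84 and 11.83 in K+-free DMEM. The 3 groups did not overlap, and it rose by 0.49 ± 0.05 (adjusted p = 7.09e-06, limma) and 0.65 ± 0.05 (adjusted p = 6.65e-07, limma). The translocon subunits *Sec61a1* and *Sec61b*, which form the channel into the ER, changed by 0.13 and 0.02 in ouabain and by 0.05 and 0.08 in K+-free DMEM.

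**Figure D3:**
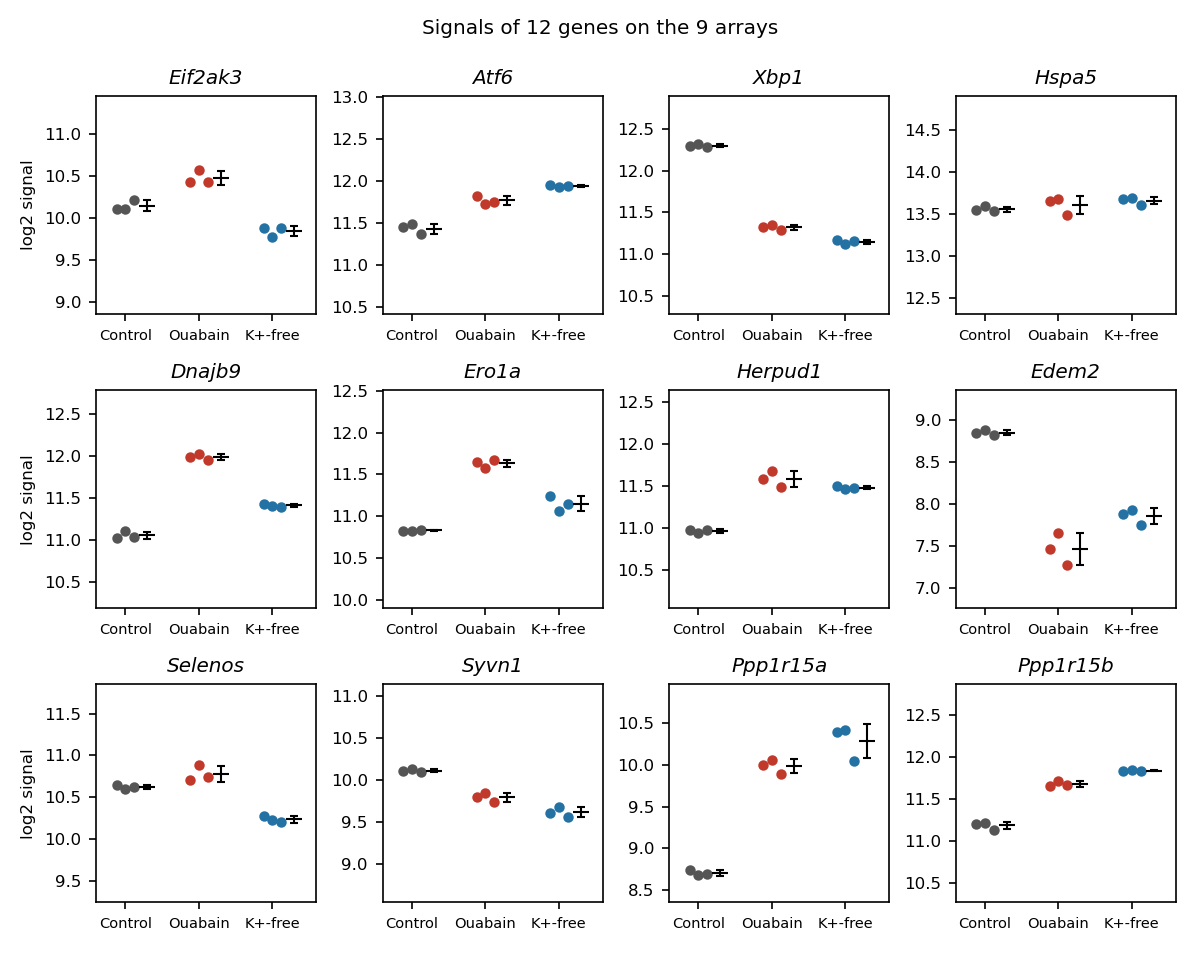
Log2 signal (vertical axis, each panel spanning the same 2.6 log2 units) of 12 named genes on the 3 arrays of control, ouabain and K+-free DMEM; bars give the mean and SD of 3 arrays. *Hspa5* lies level across the groups, *Xbp1* and *Edem2* drop in both treatments, *Ppp1r15a* and *Ppp1r15b* climb in both, and *Eif2ak3* and *Selenos* fall below control in K+-free DMEM alone.

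The 19 genes that passed in neither treatment had changes from -0.26 to 0.23, and their 95% intervals reached from -0.37 to 0.37. In each treatment 14 of the 36 genes (38.9%) had an interval wholly inside the 1.2-fold limit, as did 32.1% of all probe sets in ouabain and 31.5% in K+-free DMEM. *Creb3*, *Hspa5*, *Hyou1*, *Hsp90b1*, *Creld2*, *Pdia3*, *Pdia6*, *P4hb*, *Os9* and *Sec61b* were among them in both treatments, and on the scale of the deposited signals a change past that limit lies outside their intervals. For the others a missed threshold does not show that the gene kept its level.

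Compared with each other, the treatments differed for 7 of the 36 genes. *Mbtps2*, *Edem2* and *Ppp1r15a* were higher in K+-free DMEM (8.33% of the list, against 8.45% of all probe sets and 10.9% of genes with a symbol). *Eif2ak3*, *Dnajb9*, *Ero1a* and *Selenos* were lower there (11.1%, against 7.97% of all probe sets and 10.7% of genes with a symbol). The arrays of the 2 treatments did not overlap for 18 genes (50%), against 32.4% of all probe sets. The first group includes a gene that had fallen in both treatments and one that had risen in both, so its members stood on both sides of control. *Dnajb9* and *Ero1a* had risen in both treatments, and their rise in K+-free DMEM was the smaller.

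The promoter elements were set beside these changes. Of the 28 measured genes with a window, 11 held an ERSE or ERSE-II. In ouabain 2 of these 11 rose (18.2%, against 15.8% of all probe sets), 1 fell (9.09%, against 16.8%) and 8 did not pass, with a median change of 0.06. In K+-free DMEM 3 rose (27.3%, against 16.1%), 1 fell (9.09%, against 17.9%) and 7 did not pass, with a median of 0.14. Of the 17 measured genes with a window and neither element, 4 (23.5%) rose and 5 (29.4%) fell in ouabain (median -0.05), against 3 (17.6%) and 6 (35.3%) in K+-free DMEM (median -0.02). Outside the list, 16 measured genes held one of the elements, of which 2 (12.5%) rose and 4 (25%) fell in ouabain, against 2 (12.5%) and 5 (31.25%) in K+-free DMEM. With so few genes in each set no difference between the sets was tested. The composite element of C/EBP and ATF factors reads TGATG, 1 base of any kind, then AA, and was searched on both strands. It stood before 2 of the 31 listed genes with a window (6.45%) and before 4.14% of all windowed genes. The 2 were *Herpud1* and *Ppp1r15b*, which rose. Of the 5 windowed genes that rose in both treatments, *Ppp1r15a*, *Dnajb9* and *Dnajc3* lacked it. The XBP1 element named UPRE was found before *Hyou1* alone of the listed genes, overlapping its ERSE-II, and before 0.681% of all genes.

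**Figure D4:**
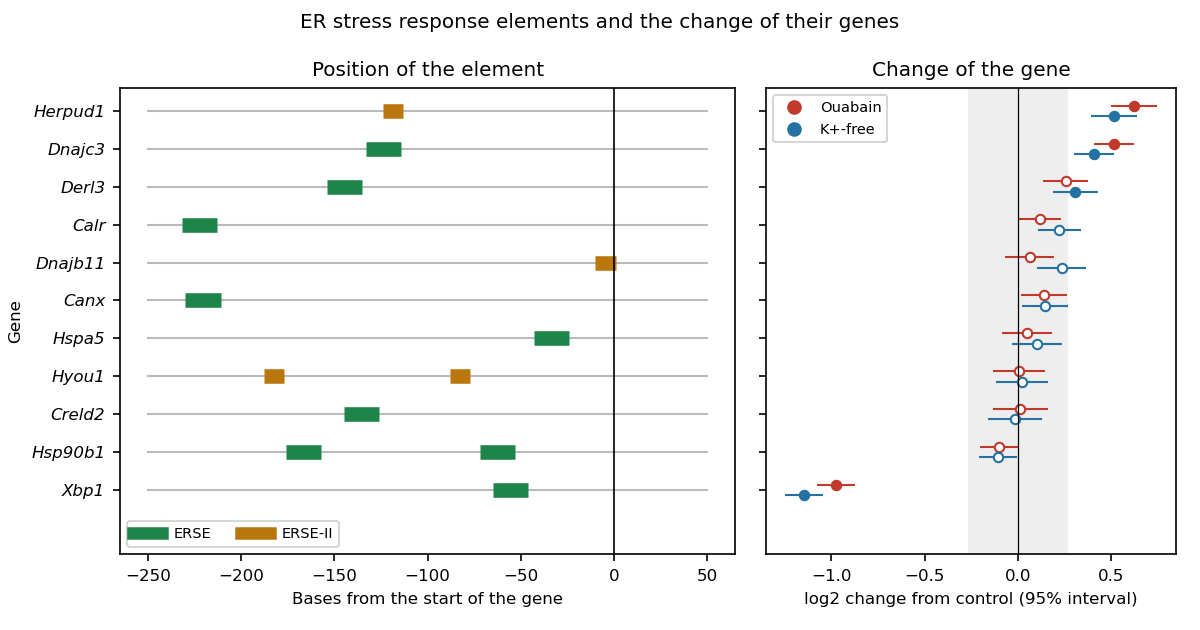
Left, position of each ERSE and ERSE-II in bases from the gene start (0) within the 300-base window of the 11 measured genes that held one; right, the log2 change of the same gene from control in ouabain and K+-free DMEM with its 95% interval, filled where both limits were passed. The elements stand between positions -232 and -25 for all but *Dnajb11*, and the genes that hold them run from *Xbp1* at -0.97 and -1.15 to *Herpud1* at 0.62 and 0.51.

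The branch of ATF4 and CHOP, downstream of PERK, was followed through 16 further genes. In ouabain 5 rose and 5 fell (31.25% each, against 15.8% and 16.8% of all probe sets), and in K+-free DMEM 4 rose and 4 fell (25% each, against 16.1% and 17.9%). The medians were -0.01 and 0.03. All genes of this and the other pathway lists have a symbol. Of the genes with a symbol on the arrays, 17.5% rose and 22.7% fell in ouabain, against 17.8% and 24.0% in K+-free DMEM. *Atf3*, a stress-induced repressor, rose the most, by 2.18 ± 0.13 in ouabain (adjusted p = 1.15e-07, limma) and 2.97 ± 0.13 in K+-free DMEM (adjusted p = 1.08e-08, limma). *Trib3*, a pseudokinase and classical CHOP target, had log2 changes of -1.36 ± 0.08 (adjusted p = 2.06e-07, limma) and -1.23 ± 0.08 (adjusted p = 3.88e-07, limma). *Asns*, the asparagine synthetase that ATF4 induces, also fell, with log2 changes of -0.75 and -0.52. *Ddit4*, an inhibitor of mTORC1, rose by 0.518 and 1.196. *Atf4* itself rose in ouabain by 0.37 (adjusted p = 0.000159, limma) and in K+-free DMEM passed on its adjusted p but not on fold, at 0.26. *Ddit3*, which encodes CHOP, fell in ouabain (log2 change -0.36, adjusted p = 0.000407, limma) and changed by 0.09 in K+-free DMEM (adjusted p = 0.232, limma). *Atf4* and *Ddit3* lie outside the rule for named genes and were added after their values were seen.

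Of 29 enzymes that build and trim N-linked glycans, 3 (10.3%) rose and 11 (37.9%) fell in ouabain, against 15.8% and 16.8% of all probe sets, with a median change of -0.17. In K+-free DMEM 3 (10.3%) rose and 6 (20.7%) fell, against 16.1% and 17.9% of all probe sets, with a median of -0.06, so the falling share there was near the background. Of genes with a symbol, 22.7% fell in ouabain and 24.0% in K+-free DMEM. With dim probe sets left out, 29.7% and 31.6% of the rest fell. *Mogs*, the glucosidase that makes the first cut in the glycan, had log2 changes of -1.02 ± 0.09 and -1.93 ± 0.09 (adjusted p = 3.84e-06 and 2.56e-08, limma). The glycosyltransferases *Alg8* and *Alg12* fell in ouabain (log2 changes -1.13 and -0.94), and in K+-free DMEM *Alg8* also fell (-0.61). *Alg9* fell in K+-free DMEM (-0.79), and *Alg10* rose in both (0.87 and 0.81).

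Of 33 other ERAD factors, 5 (15.2%) rose and 12 (36.4%) fell in ouabain, where 15.8% and 16.8% of all probe sets did. In K+-free DMEM 6 (18.2%) rose and 11 (33.3%) fell, where 16.1% and 17.9% of all probe sets did. The rising shares were near the background. The falling shares of genes with a symbol were 22.7% in ouabain and 24.0% in K+-free DMEM. With dim probe sets left out they were 29.7% and 31.6%, closer to those of this list. *Ngly1*, the cytosolic enzyme that strips glycans from exported proteins, had log2 changes of -1.29 ± 0.08 and -0.70 ± 0.08 (adjusted p = 1.59e-07 and 1.74e-05, limma). *Fbxo6*, a ubiquitin ligase subunit that reads glycans, fell as well (-0.93 and -0.46), as did the ligase *Rnf5* (-0.48 and -1.09). The ubiquitin-conjugating enzyme *Ube2g2* rose (0.73 and 0.95), and so did the deubiquitinase *Yod1* (0.63 and 0.94).

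Of 32 other chaperones and oxidoreductases of the ER, 6 rose (18.75%) and 3 fell (9.38%) in ouabain, where 15.8% and 16.8% of all probe sets did. In K+-free DMEM 8 rose (25%) and 4 fell (12.5%), where 16.1% and 17.9% of all probe sets did. *Cnpy2*, a saposin-like ER protein, fell the furthest, with log2 changes of -1.69 ± 0.07 and -1.85 ± 0.07 (adjusted p = 1.34e-08 and 5.42e-09, limma). *Hspa13*, a microsomal HSP70, rose by 0.58 and 0.74. *Sdf2* rose in ouabain (0.48), and the thioredoxin-like *Tmx4* rose in both (0.30 and 0.60).

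Of 25 genes of translocation into the ER, 4 rose (16%) and 5 fell (20%) in ouabain, and 4 (16%) and 6 (24%) did in K+-free DMEM, shares near those of all probe sets (15.8% and 16.8%, then 16.1% and 17.9%). *Srp19*, a subunit of the signal recognition particle, fell (-0.81 and -0.48), the channel paralogue *Sec61a2* rose (0.59 and 0.51), *Ssr3* rose (0.46 and 0.37) and *Ubl4a* fell (-0.31 and -0.70). Of 24 genes of COPII vesicles and KDEL receptors, 2 rose (8.33%) and 4 fell (16.7%) in ouabain, and 4 (16.7%) and 8 (33.3%) did in K+-free DMEM, against the same shares of all probe sets. In K+-free DMEM 24.0% of genes with a symbol fell, and 31.6% of probe sets did with dim ones left out. *Trappc1*, a vesicle tether, fell (-0.85 and -0.88), as did *Sec16b* (-0.66 and -0.33), while the coat subunit *Sec24a* rose (0.70 and 0.58) and *Sec23a* fell in K+-free DMEM (-0.54).

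The list of IRE1 signalling and cell death at the ER had 26 measured genes, of which 8 rose (30.8%) and 7 fell (26.9%) in each treatment, against 15.8% and 16.8% of all probe sets in ouabain and 16.1% and 17.9% in K+-free DMEM. *Casp4*, an inflammatory caspase, fell, with log2 changes of -2.72 ± 0.08 and -0.92 ± 0.08 (adjusted p = 1.75e-09 and 1.88e-06, limma). The death effector *Bax* rose by 1.63 and 1.23, and the survival gene *Bcl2l1* rose by 0.83 and 1.14. *Mapk9*, a JNK kinase downstream of IRE1, fell (-1.26 and -1.16).

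**Figure D5:**
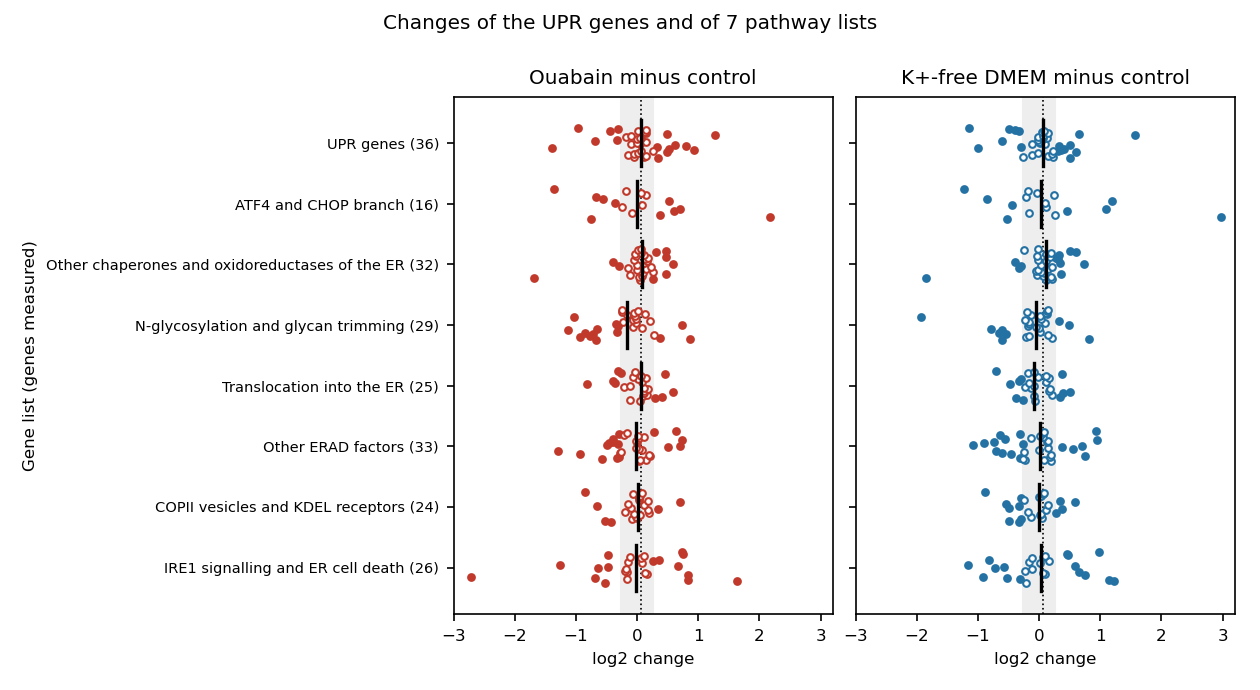
Log2 change from control of each gene of the unfolded protein response (UPR) and of 7 pathway lists in ouabain (left) and K+-free DMEM (right); filled points passed both limits, thick bars are list medians, the dotted line is the median of all probe sets and the grey band spans changes within 1.2-fold. Each list spreads to both sides of the band, and the N-glycosylation list has its median at -0.17 in ouabain.

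The cells were checked against markers of their type. Of 10 smooth muscle markers measured, 9 had signals above the median of every group's arrays, *Des* being the exception, and *Acta2* was not measured. The mean log2 signal of the 10 lay between 10.27 and 10.31 on the control arrays, 9.83 and 9.93 in ouabain and 9.97 and 10.00 in K+-free DMEM, as 7 of them fell in ouabain and 4 in K+-free DMEM. The furthest were *Lmod1* (-1.61 and -1.48), *Myh11* (-0.69 and -0.62) and *Actg2* (-0.47 and -0.65), all genes of the contractile apparatus. In these bulk RNA samples fewer cells of a type and less RNA per cell cannot be told apart. The mean log2 signal of 7 endothelial markers was 5.91 to 6.04 by array, with 6 or 7 of them under the array median, and that of 10 macrophage markers was 5.84 to 6.27, with 8 or 9 under it. Of the macrophage markers 3 of 10 rose in both treatments and none fell: in ouabain *Cd68* by 1.29, *Cd14* by 1.27 and *Csf1r* by 0.33, and in K+-free DMEM by 0.94, 0.43 and 0.53. Of 10 fibroblast markers, *Col14a1* rose in ouabain (0.30), and 4 rose in K+-free DMEM, with *Pdgfra* at 1.3, *Col14a1* at 0.33, *Fbln1* at 0.31 and *Lum* at 0.29, and none fell. Their mean log2 signal by array was 8.57 to 8.61 in control, 8.68 to 8.71 in ouabain and 8.85 to 8.87 in K+-free DMEM. Of the endothelial markers *Cdh5* rose (0.40 and 0.29) and *Esam* fell (-0.39 and -0.50) in both treatments, and *Nos3* rose in ouabain (0.26). Beside these marker counts, 15.8% of all probe sets rose and 16.8% fell in ouabain, against 16.1% and 17.9% in K+-free DMEM. The part of the marker shifts in the changes of the listed genes was not tested. Of 12 reference genes, *Hprt1* rose in both treatments and *Tbp* in ouabain, and none fell. Array medians of all signals lay between 6.758 and 6.795, and arrays of a group correlated at 0.996 to 0.998 across probe sets.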

How the data were processed

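Each of the 3 groups had 3 Affymetrix Rat Gene 1.0 ST arrays, grouped by the sample labels. The authors deposited log2 signals of 27342 probe sets, which were used with no further scaling. The labels name Partek and RMA, with versions not given in the sources used here, and another section of the study's methods names other software, so the exact summary step is unknown. RMA can compress fold changes, and the 3 arrays per group limit the precision.

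Probe sets were named with the platform annotation and current RefSeq symbols: 15097 have 1 symbol (15067 matched a RefSeq gene), 323 several and 11922 none. The listed genes and the pathway lists were chosen with earlier results of these data known. limma 3.58.1 in R 4.3.3 fitted 1 mean per group over the 9 arrays with moderated variances, and adjustment by Benjamini-Hochberg ran over all probe sets. A call needed both an adjusted p under 0.05 and more than 1.2-fold. The fit was tested on simulated data. An exact permutation test of 3 against 3 arrays could not go below p = 0.1 and was not used. Values per array are given for the 15 largest changes among called genes of the list and for *Hspa5*, *Xbp1*, *Atf6* and *Eif2ak3*, by rule, and up to 3 of the largest called changes per treatment are named in each pathway list. *Mbtps2* and *Derl3*, called in 1 treatment each, are also given per array, and the marker *Lum* is named; they lie outside the rule and were added after their values were seen. Protein tails that were planned were not read, as no protein sequences were used here. The study ran control and treated cultures side by side within every experiment, but the sample titles give only replicate numbers. Same-numbered arrays correlated at -0.05 to 0.31 in their deviations from group means and others at -0.28 to 0.16. The main fit did not take the numbers as pairs, and a block for the replicate number was an alternative. Figures used Python 3.11.15 with matplotlib 3.10.9.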

Additional observations from a re-analysis of the deposited data

How the results depend on the processing

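Over all listed genes and alternatives, none of the called changes turned its direction, but many of the alternatives could not turn one. In ouabain 783 gene values kept their side of the limits, 6 passed newly and 2 were lost. In K+-free DMEM these numbers were 775, 10 and 6, and between the treatments 776, 2 and 13. The alternatives were another scaling, moderation, test or filter, the 6 arrays of a contrast alone, a block for the replicate number and leaving out each array in turn. A direction could turn only under another scaling or without an array of the 2 groups compared. The other settings left each log2 change as it was, so only its p-value could shift a call. Pooling probe sets by gene could alter nothing, as each listed gene had 1. The kept values include all these settings and so overstate how far the calls were tested. At a fold limit of 1.5 the listed genes past both limits were 4 higher and 3 lower in ouabain, 3 higher and 3 lower in K+-free DMEM, and 0 higher and 1 lower between the treatments. With no fold limit, 7 were higher and 7 lower between the treatments. Centred on *B2m*, 5 genes rose in K+-free DMEM, and the median change became -0.10 in each treatment. Centred on reference genes, the median was -0.011 in ouabain, 0.020 in K+-free DMEM and 0.063 between the treatments, and repeated quantile normalization gave 0.10 in K+-free DMEM, where *Ero1a* (0.24) and *Derl3* (0.21) missed the fold limit. In the methods' t-test, 0 listed genes were higher in K+-free DMEM than in ouabain after adjustment and 2 at an unadjusted p under 0.05, against 3 by limma. Leaving out 1 array gave 1 to 3 such genes. The lowest count, 1, came without the first K+-free array, when *Mbtps2* and *Ppp1r15a* were lost. The paired fit, with a replicate block, gave 9 higher and 6 lower in ouabain, 9 and 7 in K+-free DMEM and 3 and 4 between the treatments, as without it.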
